A study of Mus musculus with 6 samples.

Results

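The AP-1 family of transcription factors was examined at the RNA level in mouse macrophage-like RAW264.7 cells with and without knockdown of Trem2, a phagocyte receptor for lipids and cell debris. The family was taken as 10 genes by name, of 56092 gene symbols in the deposited table: the Fos-type genes Fos, Fosb, Fosl1 and Fosl2, the Jun-type genes Jun, Junb and Jund, and the related genes Atf3, Batf and Batf3. They were picked because, in the same comparison described here, Fosb and Fos were higher and Fosl1 was lower in the knockdown cells. Levels and differences of the 10 genes are therefore given as a description, without p-values, and how many of them met the criteria for differential expression is not evidence about the family. The shNC group carried a lentiviral control hairpin and the shTrem2 group a hairpin against Trem2, each as a stable cell population, with 3 libraries per group. Cells of both groups were given 20 ng/ml IL-4 for 24 hours, followed by debris of freeze-thawed TCMK-1 cells, a mouse renal tubular line, for another 24 hours, so no library shows the family without IL-4 or debris. The labels name 1 control and 1 knockdown group, and which hairpin the knockdown group carried is not given in the sources used here. Effects of Trem2 and differences between the populations therefore cannot be told apart. The labels do not say that the 3 libraries of a group came from separate cultures, and p-values measure only the spread between these libraries, which may be technical.

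AP-1 is a dimer of basic leucine zipper proteins that binds the DNA sequence TGANTCA and close relatives. Fos-type proteins do not pair with each other and bind DNA only with a Jun-type partner, whereas Jun-type proteins can also pair among themselves. The Fos and FosB proteins carry strong activation domains, which the Fosl1 product Fra-1 and the Fosl2 product Fra-2 lack. Fos, Fosb, Jun, Junb and Atf3 are classical immediate-early genes, switched on by kinase signalling without new protein synthesis, and their mRNA is short-lived. In the macrophage lineage, Fos is known for its role in osteoclast formation, where it acts upstream of Nfatc1.

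The libraries held between 15876079 and 18088404 counts with a gene symbol in shNC and between 19358144 and 19655185 in shTrem2. Trem2 was at 114, 122 and 144 CPM (counts scaled to library size and by TMM factors) in the 3 shNC libraries and at 64.7, 63.2 and 80.2 CPM in the shTrem2 libraries. It fell by 0.87 ± 0.094 (SE) on the log2 scale (adjusted p = 3.38e-06, Benjamini-Hochberg over all genes, edgeR quasi-likelihood test), a partial loss of the mRNA. Of 8 macrophage markers, 7 were detected well enough to be tested, and Mertk had at most 3 counts in any library. The summed level of the 8 macrophage markers ranged from 4972 to 5883 CPM over the control and from 9964 to 11092 CPM over the knockdown libraries, most of it from the lysozyme gene Lyz2. Of 10 tubular epithelial markers, Epcam, Krt8, Krt18, Krt19, Cdh1, Pax2 and Havcr1 were at 0 in all 6 libraries. The highest count of any epithelial marker was 8, and the list summed to 0.277 to 0.495 CPM in shNC and 0.103 to 0.157 CPM in shTrem2. Since these are bulk samples, fewer cells of a type and less RNA per cell cannot be told apart in any value below.

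Of the 10 family genes, 9 passed the filter on low counts and Batf3 did not. Of the 9, 8 had a false discovery rate (FDR) under 0.05, beside 57.4% of the 13528 genes tested. The criteria for DEGs were an FDR under 0.05 and a fold change over 1.5. Fos and Fosb met them with a higher level in shTrem2, and Fosl1, Jund and Batf with a lower level, which makes 5 of 9 beside 21.8% of all genes tested. Among all genes tested, 9.46% met the criteria with a higher and 12.4% with a lower level in shTrem2. In 8 of the 9 family genes the CPM ranges of the groups did not overlap, beside 63.8% of all genes tested. The family was chosen on this comparison, so nothing is read from these shares. The differences ran from 75.5-fold higher for Fosb to 4.61-fold lower for Fosl1, and the median log2 fold change over the 9 genes was -0.13, beside 3.0e-05 over all genes tested.

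**Figure D1:**
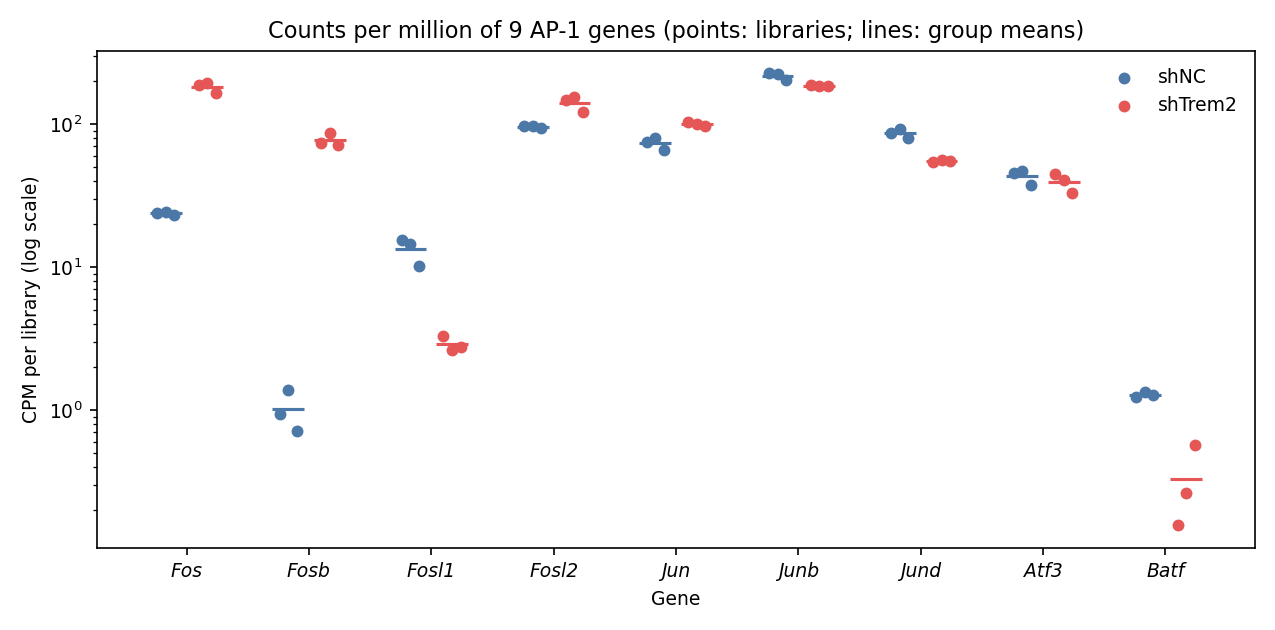
CPM on a log scale (vertical axis) of 9 AP-1 genes (horizontal axis), with 1 point per library, shNC in blue and shTrem2 in red, and a line at each group mean. Fos and Fosb lie higher and Fosl1, Jund and Batf lower in shTrem2, while the points of Atf3 overlap. Batf3, with at most 2 counts in any library, is not drawn.

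Fosb encodes FosB, a close relative of Fos, and lies on the minus strand at chr7:19302696-19310051 (GRCm38, as are all gene coordinates here). It was at 0.932, 1.39 and 0.715 CPM in the shNC libraries, from 15, 25 and 13 counts. The shTrem2 libraries had 73.2, 86.9 and 71.0 CPM, from 1403, 1663 and 1378 counts. Fosb was thus low in every control library and moderately expressed in every knockdown library. Its log2 fold change was 6.24 ± 0.15 (SE), the third in absolute size among all genes tested. The size depends on the few control counts, and the estimate was 4.16 on the log2(FPKM + 1) scale, where FPKM is the authors' value per gene length and depth.

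Fos, the founding member of the family, lies on the plus strand at chr12:85473890-85477273. Its levels were 23.9, 24.3 and 23.2 CPM in shNC and 186, 192 and 165 CPM in shTrem2. The control libraries lay within about 1 CPM of each other, and the lowest knockdown library was far above them. The group means were 23.8 ± 0.583 and 181 ± 14.1 CPM (SD, n = 3), a log2 fold change of 2.93 ± 0.067 (SE) or 7.62-fold higher.

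The 140 bases before the RefSeq start sites of Fos and Fosb are shown because both genes were higher. Those of Junb and Atf3, which were not higher, are shown beside them because they hold the same short motif. Capitals mark TGACG or its reverse complement CGTCA, the core of the cAMP response element bound by CREB and ATF proteins, and in Fos also the TATAAA of the TATA box. The sequences are from RefSeq, build GRCm38.p6, and read 5′ to 3′ toward the start, at chr12:85473750-85473889 (plus strand) for Fos, chr7:19310046-19310185 (minus) for Fosb, chr8:84978749-84978888 (minus) for Junb and chr1:191183334-191183473 (minus) for Atf3.
Fos promoter: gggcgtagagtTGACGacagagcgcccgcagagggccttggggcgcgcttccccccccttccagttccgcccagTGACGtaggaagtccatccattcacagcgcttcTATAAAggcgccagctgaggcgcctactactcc
Fosb promoter: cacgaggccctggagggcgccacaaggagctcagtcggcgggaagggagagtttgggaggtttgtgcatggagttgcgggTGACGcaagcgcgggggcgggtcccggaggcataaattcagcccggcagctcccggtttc
Junb promoter: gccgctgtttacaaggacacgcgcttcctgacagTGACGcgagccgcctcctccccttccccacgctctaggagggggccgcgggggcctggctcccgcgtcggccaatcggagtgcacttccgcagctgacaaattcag
Atf3 promoter: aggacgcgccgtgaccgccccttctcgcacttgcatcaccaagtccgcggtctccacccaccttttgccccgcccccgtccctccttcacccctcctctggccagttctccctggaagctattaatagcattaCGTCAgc

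Counted back from -1 just before the start, the motif began at -129 and -66 in Fos, -60 in Fosb, -106 in Junb and -7 in Atf3, and TATAAA began at -33 in Fos. Promoter entries of 300 bases (250 before the start and 50 after it) were held for 9 of the 10 genes, not for Fosl1. The 140 bases before the start in the Jund entry, chr8:70697599-70697738, lie well upstream of the GENCODE gene start at chr8:70698949. The Atf3 stretch, chr1:191183334-191183473, lies inside the GENCODE gene, whose start on the minus strand is at chr1:191218039. The Jund and Atf3 entries may therefore not cover the promoters at those gene starts. Over these entries TGACG on either strand was in 5 of 9 family genes (Fos, Fosb, Junb, Atf3 and Batf), beside 20.8% of all 32851 promoters. The full TGACGTCA, which contains the shorter motif, was in 0 of 9 beside 1.79% of all promoters. TGANTCA, the site AP-1 itself binds, was in 0 of 9 beside 7.81%, and the CArG box, the serum response factor site, in 0 of 9 beside 1.63%. GGGCGG, the GC box bound by Sp1, was in 7 of 9 beside 35.7%, and TATAAA, searched on the gene's strand only, in 2 of 9 (Fos and Junb) beside 8.32%. Family genes with TGACG were thus found among those that were higher, lower and overlapping between the groups. A match describes letters in this window and is not a measured binding site. The absence of a match does not cover sites outside these 300 bases or variants of a motif.

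Fosl1 encodes Fra-1 and lies on the plus strand at chr19:5447547-5455946. It stood opposite to Fos and Fosb, at 15.4, 14.5 and 10.2 CPM in shNC and at 3.29, 2.61 and 2.78 CPM in shTrem2. Even the lowest control library was several times the highest knockdown library. The means were 13.4 ± 2.76 and 2.89 ± 0.351 CPM (SD, n = 3), a log2 fold change of -2.20 ± 0.18 (SE). The counts behind it were small in shTrem2, at 63, 50 and 54, and a difference at least as large in absolute log2 fold change was seen in 1.52% of the genes tested. Fosl2 encodes Fra-2, the other family member without a strong activation domain, and lies on the plus strand at chr5:32135801-32157842. Unlike Fosl1 it was higher in shTrem2, at 147, 154 and 122 CPM compared with 96.9, 96.5 and 93.7 CPM in shNC. Its groups did not overlap, but the log2 fold change of 0.56 ± 0.072 (SE), or 1.47-fold, stayed under the fold criterion. Leaving out the lowest knockdown library (replicate 3) brought Fosl2 past it, which made 6 family genes.

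**Figure D2:**
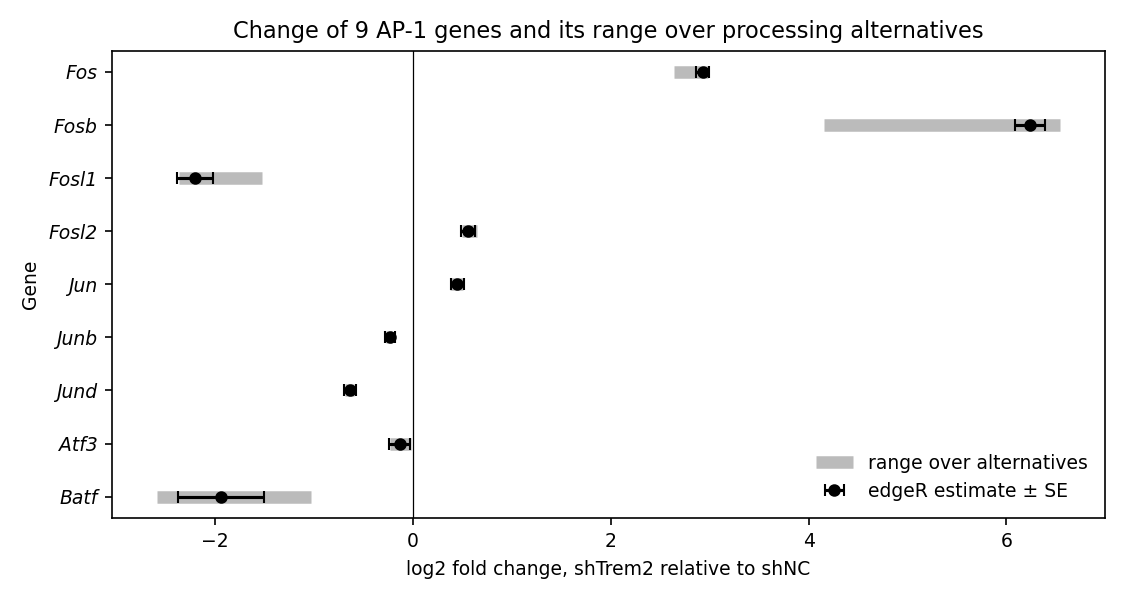
Log2 fold change in shTrem2 relative to shNC (horizontal axis) of 9 AP-1 genes (vertical axis), with black points for the edgeR estimate, bars for its SE and grey bands for the range over alternative processing settings. Every band lies on the same side of 0 as its estimate, and the widest is that of Fosb, from 4.16 to 6.54.

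The deposited counts were given per transcript, without transcript names. The rows of Fosb, Fos and Fosl2 could be assigned to GENCODE transcripts because the FPKM rebuilt from row counts and transcript lengths matched the deposited FPKM to within 0.0252%, 0.0442% and 0.033%. The rows of Fosl1 could not, since the best match was off by 33.7%, but its first row held 99.8% of the counts in shNC and 97.8% in shTrem2. For Fosb the next best assignment, which differs only in a row of few counts, was off by 0.0396%.

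Most of the Fosb counts in shTrem2 fell on 3 transcripts. Fosb-201 has 4 exons and encodes the full-length protein of 338 codons, and it was at 29.4, 20.0 and 5.59 CPM in the 3 shTrem2 libraries. Fosb-205, which has a shorter exon 2 and 299 codons, was at 16.5, 35.4 and 36.2 CPM. The split between these transcripts differed widely between the shTrem2 libraries, with Fosb-201 holding 40.2%, 23.1% and 7.88% of the Fosb counts. The third, Fosb-204 at chr7:19306416-19310044, is an unspliced form annotated as a retained intron that runs from the first exon into the third intron. It was at 25.9, 31.0 and 27.8 CPM, or 35.4%, 35.7% and 39.2% of the Fosb counts, and was the steadiest of the 3 across libraries. In shNC the same row had 12.7 of 53 counts in all 3 libraries together, 23.9%, too few for a comparison of shares. Without this row, an alternative added after the data were seen, the log2 fold change of Fosb was 5.98.

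Fosb is also known for a short product, ΔFosB, made when 140 bases inside the last exon are removed as an intron, which shifts the reading frame to an early stop and removes the C-terminal activation domain. The stretch is shown because it separates the full-length from the short form. Capitals mark the removed bases at chr7:19305007-19305146 (GRCm38, minus strand), which begin with GT and end with AG, and lower case marks 30 bases of coding sequence on each side in Fosb-201.
Fosb-201, last exon: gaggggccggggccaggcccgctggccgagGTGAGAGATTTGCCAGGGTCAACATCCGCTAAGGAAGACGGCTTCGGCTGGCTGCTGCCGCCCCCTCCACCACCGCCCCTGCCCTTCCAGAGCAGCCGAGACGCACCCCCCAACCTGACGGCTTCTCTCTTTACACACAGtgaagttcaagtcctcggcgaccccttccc
The transcripts without these bases, Fosb-206 (237 codons) and Fosb-207 (201 codons, also without exon 3), had few counts in shTrem2. Fosb-206 held 8.53 estimated counts, or 0.192% of the Fosb total, and Fosb-207 held 52.9, or 1.19%. Rows with so few counts are the least certain in the assignment, whose best and next best matches were off by 0.0252% and 0.0396%. In the libraries with high Fosb, the counts assigned to forms with the stretch removed were thus a small part of the total. Reads that neither cover the stretch nor span its junction cannot tell the forms apart.

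**Figure D3:**
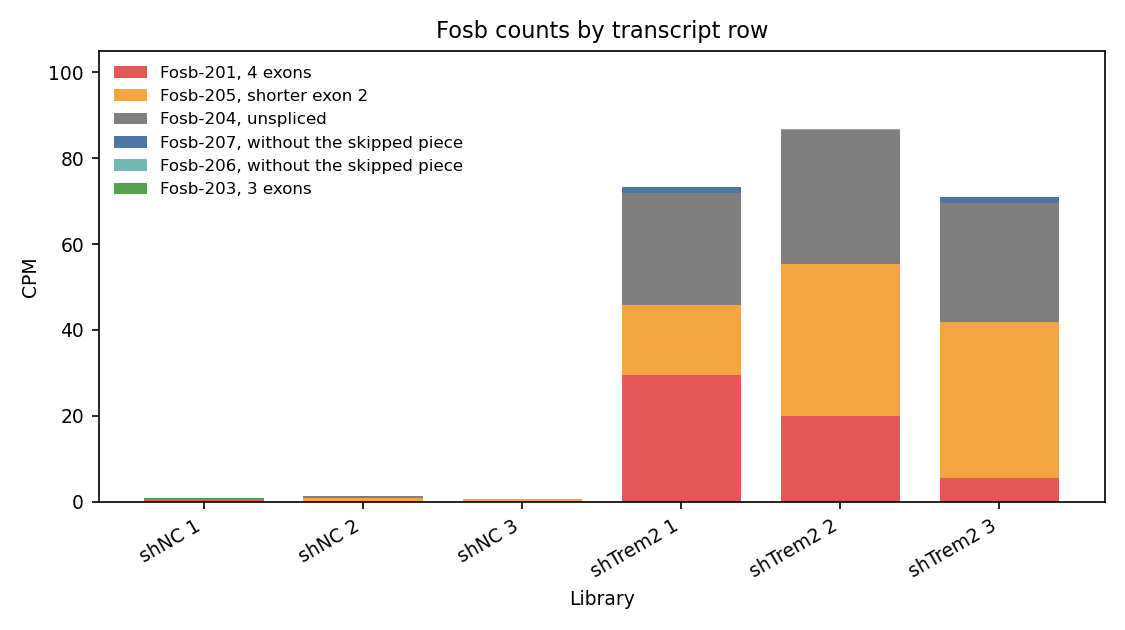
CPM (vertical axis) of Fosb in each library (horizontal axis), stacked by transcript row. The 3 shTrem2 libraries reach 71.0 to 86.9 CPM, mostly Fosb-201, Fosb-205 and the unspliced Fosb-204, while the shNC libraries stay at or below 1.39 CPM.

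The spliced coding transcript Fos-201 held 90.1% of the Fos counts in shNC and 95.6% in shTrem2. It went from a mean of 21.4 ± 0.476 to 173 ± 14.1 CPM (SD, n = 3), a ratio of 8.09. A shorter non-coding form, Fos-203, was at 2.36 ± 1.03 and 7.92 ± 1.23 CPM, a ratio of 3.36. For Fosl2 the coding Fosl2-201 differed by a ratio of 1.45, from 95.0 ± 1.61 to 137 ± 16.9 CPM. The unspliced Fosl2-202, a single exon at chr5:32136173-32139644, was at 0.826, 0.551 and 0.361 CPM in shNC and 3.60, 2.68 and 2.80 CPM in shTrem2, a ratio of 5.22. The unspliced forms of both Fosb and Fosl2 were thus higher in shTrem2, and that of Fosl2 held 0.595% of the gene's counts in shNC and 2.15% in shTrem2.

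The 3 Jun-type genes, the obligate partners of Fos-type proteins, differed far less than Fos, Fosb and Fosl1. Jun, on the minus strand at chr4:95049034-95052222, was at 74.8, 79.8 and 65.7 CPM in shNC and 103, 100.5 and 96.7 CPM in shTrem2, without overlap, a log2 fold change of 0.45 ± 0.067 (SE). Jun was listed in 2 rows with equal counts in 6 of 6 libraries. Junb, at chr8:84974484-84978718 on the minus strand, encodes a partner with weaker activation than Jun. It was at 226, 223 and 203 CPM in shNC and 189, 185 and 183 CPM in shTrem2, a log2 fold change of -0.23 ± 0.049 (SE). The Junb groups came close without overlapping. Jund, at chr8:70698949-70700616 on the plus strand, is expressed steadily in resting cells and is not an immediate-early gene. Its levels were 86.8, 91.6 and 80.0 CPM in shNC and 54.5, 56.1 and 55.6 CPM in shTrem2, a log2 fold change of -0.64 ± 0.060 (SE). Its 1.56-fold lower level lay just past the criterion of 1.5, and Jun and Jund therefore differed in opposite directions.

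Atf3, an immediate-early and stress-response gene at chr1:191170296-191218039 on the minus strand, was the family member whose groups overlapped. It was at 45.4, 46.7 and 37.3 CPM in shNC and 44.6, 40.7 and 32.8 CPM in shTrem2, a log2 fold change of -0.13 ± 0.11 (SE). Batf, at chr12:85686669-85709087 on the plus strand, encodes a short partner of Jun-type proteins that works with IRF factors in immune cells. It was low in both groups, at 1.24, 1.33 and 1.26 CPM in shNC and 0.157, 0.261 and 0.567 CPM in shTrem2, from 20, 24 and 23 counts and 3, 5 and 11 counts. The log2 fold change of -1.94 ± 0.43 (SE) rests on these few counts, and without shTrem2 replicate 3 it was -2.58. Batf passed the low-count filter only through the shNC group. Batf3, a relative of Batf at chr1:191097847-191108945 on the plus strand, had 0, 2 and 0 counts in shNC and 0, 1 and 0 counts in shTrem2. Both groups lay within the limit that a count of 0 allows, 3 counts or 0.153 to 0.189 CPM per library, and no fold is given.

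Levels of different genes were compared on the FPKM scale, which is per length. In shNC, Junb was highest at 147 ± 9.10 FPKM (SD, n = 3), followed by Jund at 64.3 ± 4.63, Atf3 at 26.0 ± 3.20 and Jun at 25.7 ± 2.60. Fos at 17.1 ± 2.01 and Fosl2 at 15.6 ± 0.405 came next, then Fosl1 at 8.86 ± 1.57, Batf at 2.04 ± 0.0723 and Fosb at 0.327 ± 0.146. The neighbours Atf3 and Jun, Fos and Fosl2, and Fosb and Batf3 overlapped between libraries. In shTrem2, Junb at 122 ± 1.16 FPKM remained first, and Fos at 112 ± 7.47 came directly after it, without overlap, ahead of Jund at 40.4 ± 0.789 and Jun at 34.2 ± 1.02. Atf3 at 23.2 ± 3.43, Fosl2 at 22.9 ± 2.54 and Fosb at 22.7 ± 2.76 overlapped, so by gene FPKM Fosb moved from near the bottom to the level of Fosl2. These gene levels include forms without a coding sequence, among them Fosb-204 at a mean of 8.36 FPKM in shTrem2. The coding rows Fosb-201 and Fosb-205 were at 5.19 and 8.63 FPKM there, below Fosl2-201 at 21.6. In shNC the coding Fos-201 was at 12.0 FPKM, below Fosl2-201 at 15.3, unlike the order by gene. Fosl1 was then at 2.41 ± 0.345 FPKM and Batf at 0.51 ± 0.339.

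The summed FPKM of the 4 Fos-type genes was 43.5, 44.6 and 37.4 in shNC and 159, 172 and 148 in shTrem2. In shNC, Fos made up 40.7 ± 1.63% of that sum (SD, n = 3), Fosl2 37.4 ± 2.76%, Fosl1 21.1 ± 2.10% and Fosb 0.768 ± 0.290%. In shTrem2 the shares were 70.0 ± 0.701% for Fos, 14.3 ± 0.742% for Fosl2, 14.2 ± 0.840% for Fosb and 1.52 ± 0.301% for Fosl1. The shares depend on the scale: on CPM, which is not per length, Fosl2 was 71.5% and Fos 17.8% of the sum in shNC, and Fos 45.2%, Fosl2 35.0% and Fosb 19.2% in shTrem2. On both scales, genes for the Fos-type proteins with strong activation domains, Fos and Fosb, thus formed the larger part of the Fos-type sum in every shTrem2 library. In every shNC library they formed the smaller part. The sums include forms without a coding sequence. Fos-203 had a mean of 5.04 FPKM in shNC and 16.5 in shTrem2, and Fosb-204 had 0.0723 and 8.36. The FPKM of Fosl1 could not be rebuilt from its rows. The summed FPKM of the 3 Jun-type genes was 245, 247 and 219 in shNC and 198, 197 and 195 in shTrem2. Junb was 62.0 ± 0.907% and 62.1 ± 0.255% of the Jun-type sum, while Jun went from 10.8 ± 0.436% to 17.4 ± 0.387% and Jund from 27.1 ± 0.557% to 20.5 ± 0.525%. The ratio of summed Fos-type to summed Jun-type FPKM was 0.178, 0.180 and 0.171 in shNC and 0.802, 0.874 and 0.758 in shTrem2. These are mRNA levels, and protein and dimers were not measured in these libraries.

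**Figure D4:**
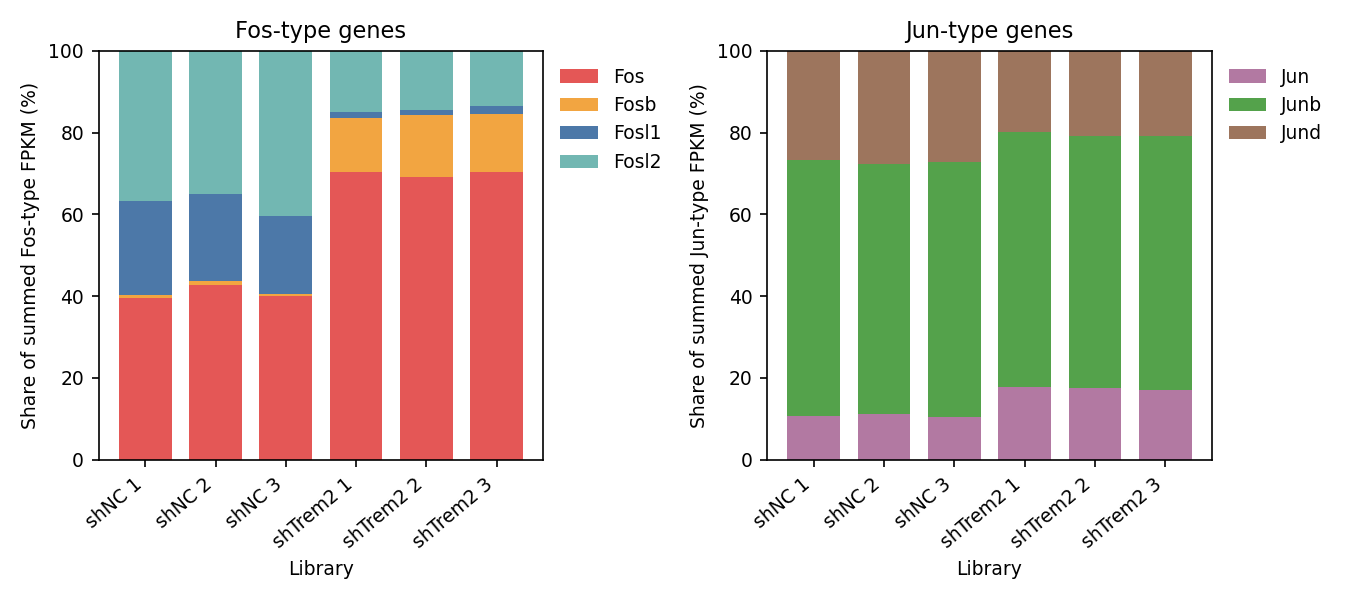
Share in percent (vertical axis) of each gene in the summed FPKM of the Fos-type genes (left) and the Jun-type genes (right) in each library (horizontal axis). Fosl1 and Fosl2 hold most of the Fos-type sum in the shNC libraries and Fos and Fosb in the shTrem2 libraries, while the Junb share is near 62% throughout.

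Profiles over the 6 libraries were compared with those of 9595 other expressed genes by the root mean square difference of centred log2 CPM. The genes most like Fosb were Ctsk, the osteoclast protease cathepsin K, at a difference of 0.299, then the serine protease gene Prss35 at 1.37 and the interferon-stimulated gene Ifit1 at 1.51. Of these 3, Ctsk came nearest to Fosb in size, with a mean of 0.463 ± 0.119 CPM in the control and 31.3 ± 7.03 CPM in the knockdown libraries (SD, n = 3). Nearest to Fos were the interferon-stimulated genes Cmpk2 at 0.262 and Ifit1 at 0.263, followed by Prss35 at 0.291. For Fosl1 the nearest were the chemokine gene Ccl3 at 0.124, the adaptor gene Grap at 0.136 and the p53-induced gene Trp53inp1 at 0.140. With 2 groups, this likeness mostly reflects the size of the difference between them.

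The genes around AP-1 were examined in lists that leave out the 10 family genes and were drawn up with earlier results of these data known. The list of AP-1 target genes held 25 genes, of which 18 were tested and 9 met the criteria, all of them lower in shTrem2. This was 50% of the list, beside 21.8% of all genes tested, or 12.4% with a lower level. The median log2 fold change of the target list was -0.59, beside 3.0e-05 over all genes tested. Given how the lists were drawn up, nothing is read from their shares. Ptgs2, the inducible cyclooxygenase, fell from 252 ± 64.8 to 22.2 ± 0.871 CPM (SD, n = 3; log2 fold change -3.50 ± 0.16 SE; adjusted p = 1.12e-09, Benjamini-Hochberg over all genes, edgeR quasi-likelihood test). Plau, the urokinase plasminogen activator, fell from 239 ± 8.89 to 40.1 ± 6.29 CPM, a log2 fold change of -2.57. The growth factor gene Hbegf fell from 3.72 ± 1.31 to 0.572 ± 0.189 CPM. Of the 18 tested genes, 4 passed the low-count filter only through 1 group. Hbegf and Il23a, both called lower, passed only through the shNC group, so a difference in this direction was built into their being tested. Ptgs2 and Plau passed through both groups. Of the 18 tested genes, 13 were lower and 5 higher in shTrem2, with or without meeting the criteria. Whether any family gene bears on these levels was not tested.

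Of 10 AP-1 dependent osteoclast genes, 8 were tested and 6 met the criteria, all of them higher in shTrem2. This was 75% of those tested, beside 21.8% of all genes tested, or 9.46% with a higher level. The median of the list was 1.44 on the log2 scale. Ctsk rose by a log2 fold change of 6.07 ± 0.25 (SE; adjusted p = 5.11e-10, Benjamini-Hochberg over all genes, edgeR quasi-likelihood test). Ocstamp, a fusion gene of osteoclasts, rose from 0.399 ± 0.358 to 2.81 ± 1.18 CPM, Atp6v0d2, a proton pump subunit, from 8.07 ± 1.30 to 24.8 ± 5.98 CPM, and Itgb3, integrin beta 3, from 1.17 ± 0.148 to 3.37 ± 1.02 CPM (SD, n = 3). Ctsk and Ocstamp passed the low-count filter only through the shTrem2 group, so a difference in this direction was built into their being tested. The remaining called genes of this list, named after their values were seen, were Nfatc1 with a log2 fold change of 0.97 and Acp5, the tartrate-resistant acid phosphatase, with 1.37. Among called genes that passed the filter through both groups, Ptgs2 and Plau of the target list were lower, and Nfatc1 and Acp5 of the osteoclast list were higher. With at least 10 counts required in every library, 7 target genes and 4 osteoclast genes met the criteria.

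The list of other immediate-early genes held 16 tested genes. Of these, 5 rose and 3 fell, or 50% beside 21.8% of all genes tested, with a median log2 fold change of 0.31. Dusp1, a phosphatase that switches off MAP kinases, rose from 8.22 ± 1.47 to 38.5 ± 1.63 CPM (SD, n = 3; log2 fold change 2.22 ± 0.11 SE; adjusted p = 1.65e-09, Benjamini-Hochberg over all genes, edgeR quasi-likelihood test). The transcription factor gene Klf4 rose by 1.59, the synaptic immediate-early gene Arc by 1.53 and Ier2 by 1.04 on the log2 scale. Named after their values were seen, Klf2 also rose, by 0.75, and Ier3, Ier5 and Btg2 fell by 0.95, 0.83 and 0.82. Immediate-early genes outside the family thus moved both ways. None of these 8 genes differed as much as Fos, which was 2.93 higher on the log2 scale. The family was chosen on the difference of Fos, so nothing is read from this.

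Transcripts of the signalling steps before Fos were examined next. Of 20 MAP kinase cascade genes tested, 1 rose and 3 fell, or 20.0% beside 21.8% of all genes tested, with a median log2 fold change of -0.0036. The p38-activating kinase gene Map2k6 rose from 0.422 ± 0.251 to 1.49 ± 0.259 CPM (SD, n = 3; log2 fold change 1.81) and passed the low-count filter only through the shTrem2 group, while Map3k8, Braf and Mapk7 fell by 0.87, 0.80 and 0.62 on the log2 scale. The log2 fold change of the ERK gene Mapk3 was 0.32, that of the JNK gene Mapk8 was 0.04 and that of the p38 gene Mapk14 was 0.29, all under the fold criterion. Of 13 transcription factors upstream of Fos, the ternary complex factor genes Elk4 and Elk3 met the criteria, or 15.4%, each with a log2 fold change of -0.65, and the list median was -0.062. The serum response factor gene Srf was at 47.6 ± 1.31 and 43.2 ± 3.53 CPM, a log2 fold change of -0.14 (adjusted p = 0.0933, Benjamini-Hochberg over all genes, edgeR quasi-likelihood test). Kinase activity and phosphorylation were not measured.

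Other basic leucine zipper genes, which can share partners with AP-1, included 14 tested genes. Of these, 2 rose and 2 fell, or 28.6% beside 21.8% of all genes tested, with a median log2 fold change of 0.020. The small Maf genes Maff and Mafg fell by 1.66 and 0.66, and Atf4, a factor of the integrated stress response, rose by 0.62 on the log2 scale. Jdp2, which dimerises with Jun-type proteins and represses AP-1 sites, had a log2 fold change of 0.37, under the fold criterion. Among 11 genes for the decay of AU-rich mRNA and the turnover of Fos and Jun proteins, 2 rose and 1 fell, with a median of 0.13. This was 27.3%, beside the same 21.8%. Det1, part of a ubiquitin ligase for Jun, rose by 0.75 and the decay factor gene Zfp36l2 by 0.72, while Zfp36l1 fell by 0.60 on the log2 scale. Atf4 and Zfp36l1 lay near the fold criterion and no longer met it when 1 library was left out, with log2 fold changes of 0.58 for Atf4 without shTrem2 replicate 1 or 2, and -0.57 without shNC replicate 2 and -0.55 without shTrem2 replicate 3 for Zfp36l1. Of the macrophage markers, Lyz2, Fcgr1 and Csf1r rose by 1.39, 0.85 and 0.76, and Itgam fell by 0.78. The other tested markers stayed under the fold criterion, with log2 fold changes of -0.56 for Adgre1, 0.12 for Cd68 and 0.22 for Ptprc. The markers thus moved both ways. The summed level of 6 heat shock genes, which mark cell stress, ranged from 1870 to 1903 CPM over the control and from 1203 to 1635 CPM over the knockdown libraries. Most of that sum was Hspa8, named after its values were seen, at 1524 ± 18.1 and 1074 ± 203 CPM (SD, n = 3), a log2 fold change of -0.50. Hsph1, also named after its values were seen, had a log2 fold change of -0.18. Hspa8 and Hsph1 were lower without overlap but under the fold criterion (adjusted p = 4.34e-04 and 0.0104, Benjamini-Hochberg over all genes, edgeR quasi-likelihood test). The inducible Hspa1b and the co-chaperone gene Dnajb1 had log2 fold changes of -0.10 and 0.13 (adjusted p = 0.436 and 0.131, same test). The part of these marker differences in the levels of the AP-1 genes was not tested.

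**Figure D5:**
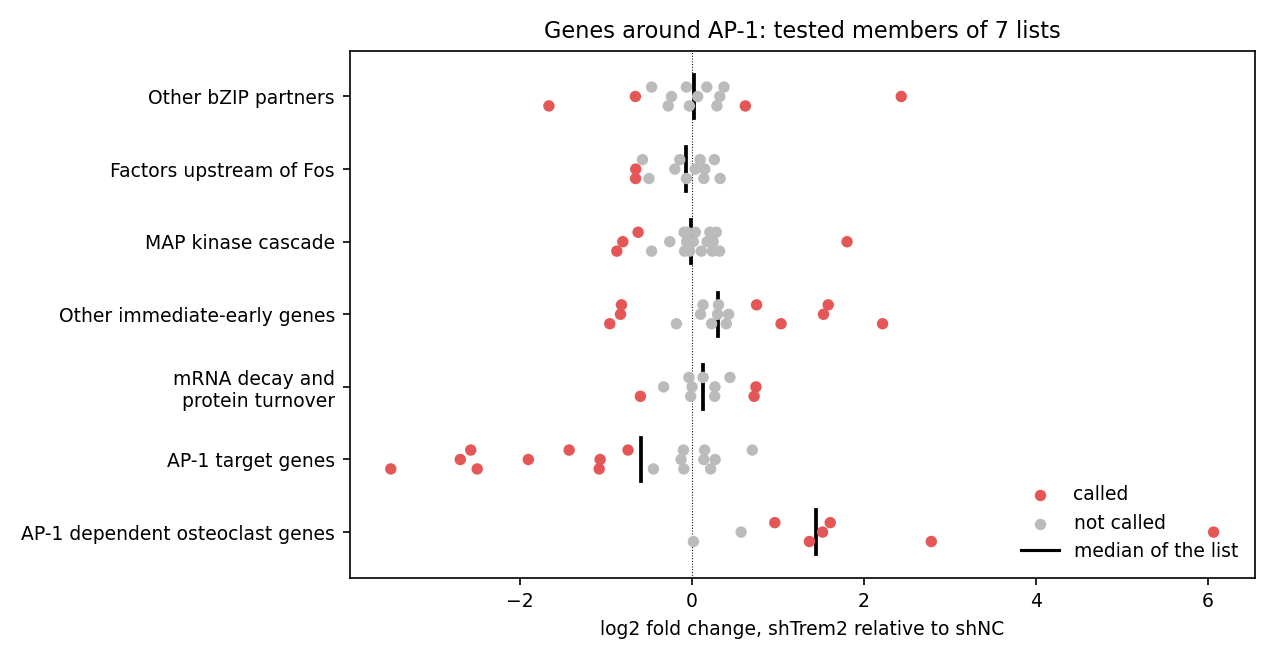
Log2 fold change in shTrem2 relative to shNC (horizontal axis) of the tested genes in 7 lists around AP-1 (vertical axis), with red points for genes meeting the criteria, grey points for the others and a black line at each list median. The called AP-1 target genes lie below 0 and the called osteoclast genes above 0, while the medians of the upstream factors and of the kinase cascade are -0.062 and -0.0036, with Map2k6 standing apart at 1.81. Hbegf, Il23a, Ctsk, Ocstamp and Map2k6 passed the low-count filter only through the group where they were higher.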

How the data were processed

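The 6 RNA-seq libraries, 3 per group, were grouped by the hairpin named in their labels. Per the labels and the study's methods, reads went through fastp, HISAT2 and StringTie. The submitters' processing notes name the build GRCm39, while the annotation release is not given in the sources used here. The authors deposited estimated counts per transcript, of which 79.3% of nonzero values were not whole, and FPKM per gene identifier.

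The estimated counts of a symbol were added up and the sum was rounded. Unnamed rows (0.908% to 1.12% of counts) were left out. FPKM was used only for levels between genes and for the match of rows to transcripts of GENCODE M21 (GRCm38). The match took the transcript length less a correction of 319 to 333 nt per library, set on Jun.

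Differences were fitted with edgeR 4.0.16 (TMM, filterByExpr, quasi-likelihood test) in R 4.3.3 over 13528 genes, without covariates, with Benjamini-Hochberg adjustment. The criteria, FDR under 0.05 and fold change over 1.5, are the study's. A seeded simulation served to test the code. The smallest p an exact permutation test of 3 against 3 libraries can give is 0.1, so no such test was used for single genes. The floor of 3 counts covers counting error only. Alternatives were DESeq2 1.42.0, limma 3.58.1, other normalizations, filters and thresholds, a replicate block and leaving out each library.

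The family members and all gene lists were chosen with earlier results of these data known. Named beside the family are Trem2, up to 4 called genes per list with the largest absolute log2 fold change, the 3 genes most like Fosb, Fos and Fosl1 above a log2 CPM of 3 on average, the markers, and Srf, Jdp2, Mapk3, Mapk8 and Mapk14. Some genes that this rule names are not reported here. Library deviations of the same replicate number correlated at 0.00644, -0.00432 and 0.00668, so no shared shift of same-numbered libraries was seen. This cannot show whether those libraries were prepared together.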

Additional observations from a re-analysis of the deposited data

How the results depend on the processing

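Every family gene tested kept its direction under every alternative that gave a value, and none of the 38 family and list genes followed across settings reversed. The family was chosen on this comparison, and the list genes followed were called ones with the largest differences. All settings reuse the same 6 libraries, so a lack of reversals was likely beforehand. Without a fold threshold, 7763 genes, 8 family genes and 66 list genes had an FDR under 0.05, compared with 2951, 5 and 36 at a fold of 1.5, and at a fold over 2 there were 1339 genes, 4 family genes and 20 list genes. Leaving out each library in turn gave 2791 to 3105 genes, 5 to 6 family genes and 36 to 40 list genes. With the replicate block the numbers were 2910, 5 and 36. Batf could not be tested when 10 counts were required in every library, which left 4 family genes. By library size alone, 39.0% of the calls were higher in shTrem2 compared with 43.4% with TMM. Shares of the summed Fos-type level depended on the scale: on CPM, which favours long transcripts, Fos was 17.8% in shNC and 45.2% in shTrem2, Fosl1 9.94% and 0.724%, Fosl2 71.5% and 35.0%, and Fosb 19.2% in shTrem2, so that Fosl2 and not Fos held the largest share in shNC. On the log2(FPKM + 1) scale, differences of low genes were smaller, at 2.64 for Fos, -1.52 for Fosl1 and -1.03 for Batf. Itgb3 and Map2k6 missed the fold criterion on that scale, at 0.39 and 0.57. Low counts limit the precision for Fosl1 in shTrem2, Fosb in shNC, Batf and Batf3.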
